A study of Mus musculus with 6 samples.

Results

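Cftr, Ica1, Clec3a and Azgp1 are 4 autosomal genes, of 23337 in the count table, that had reads in every adult library and not a single read in any neonatal library. They were chosen by that pattern: the counts of adult replicates 1, 2 and 4 and of neonatal replicates 4, 7 and 8 picked them, so their difference between the groups is described here and not tested. The libraries are polyA-selected RNA-seq of sorted mouse leukaemia initiating cells (LICs), the cells able to start a leukaemia anew, with 3 adult and 3 neonatal libraries. The labels give the age group and, for both groups, haematopoietic stem and progenitor cells as source. They name no genotype, driver of the leukaemia, strain, treatment, sex or age in weeks for either group, and do not say that replicates came from separate animals. P-values below therefore reflect how far these samples vary, and that variation may be technical.

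None of the 4 genes is a textbook gene of blood stem cells, and their proteins do different work. Cftr encodes a chloride and bicarbonate channel of epithelial surfaces that opens after phosphorylation by protein kinase A, is built like an ABC transporter, and causes cystic fibrosis when mutated. Ica1 encodes islet cell autoantigen 1, a membrane-curving protein of the Golgi and of secretory granules in endocrine and nerve cells. Clec3a encodes a secreted C-type lectin known from cartilage, and Azgp1 encodes zinc-alpha-2-glycoprotein, a secreted protein with an MHC class I fold that is known for promoting fat breakdown.

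The genes lie on 3 chromosomes of mouse build mm10. Cftr (chromosome 6, 18170687 to 18322769, plus strand) has 27 separate exon blocks totalling 6304 bases. Ica1 lies on the same chromosome (8630527 to 8778484, minus strand), 9.39 megabases away, with 14 blocks totalling 2075 bases. Clec3a (chromosome 8, 114418034 to 114428133, plus strand) has 3 blocks totalling 2930 bases, and Azgp1 (chromosome 5, 137981521 to 137990232, plus strand) has 4 totalling 1314 bases. GENCODE lists all 4 as protein-coding. No other gene of the count table overlaps any of them. In GENCODE an antisense transcript, Gm15592, shares 129 bases with Cftr exons, and since the library kit does not mark strand, reads from those bases cannot be assigned to either strand.

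The promoters are shown so that the sequence at the starts of these genes, which were picked for counts in adult libraries only, can be read side by side. RefSeq (GRCm38.p6) gave windows of 250 bases before to 50 bases after the start for 3 of the 4 genes, Cftr, Ica1 and Azgp1. Capitals mark matches, on either strand, to the CCAAT box, to the TATAAA motif of many promoters and to GGGCGG, the GC box, and the windows below are chr6:18170437-18170736 for Cftr, chr6:8778435-8778734 (minus strand) for the upstream start of Ica1, and chr5:137981271-137981570 for Azgp1.
Cftr promoter: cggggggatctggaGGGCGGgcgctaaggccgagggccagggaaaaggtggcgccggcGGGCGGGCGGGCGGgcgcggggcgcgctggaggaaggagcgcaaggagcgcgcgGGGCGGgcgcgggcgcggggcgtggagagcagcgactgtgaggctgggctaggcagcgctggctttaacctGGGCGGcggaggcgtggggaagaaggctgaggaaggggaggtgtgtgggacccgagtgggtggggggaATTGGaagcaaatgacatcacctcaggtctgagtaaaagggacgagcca
Ica1 promoter: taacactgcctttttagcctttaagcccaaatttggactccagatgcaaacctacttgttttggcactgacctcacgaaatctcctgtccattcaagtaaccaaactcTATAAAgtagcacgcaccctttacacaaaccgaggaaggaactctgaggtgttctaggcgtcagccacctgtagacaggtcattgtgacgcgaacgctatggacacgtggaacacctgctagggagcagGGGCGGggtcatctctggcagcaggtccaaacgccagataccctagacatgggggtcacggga
Azgp1 promoter: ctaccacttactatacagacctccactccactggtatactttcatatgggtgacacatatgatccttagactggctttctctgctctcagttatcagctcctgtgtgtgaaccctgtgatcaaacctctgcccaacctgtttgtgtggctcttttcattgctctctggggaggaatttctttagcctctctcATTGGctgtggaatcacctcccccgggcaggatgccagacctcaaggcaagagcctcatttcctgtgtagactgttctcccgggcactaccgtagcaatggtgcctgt

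The 3 promoters were unlike each other in base composition. The Cftr window was 71.3% G or C with 31 CpG dinucleotides, more than in 89.4% of the 32851 promoter windows of the table. The Ica1 window was 51.3% G or C with 11 CpGs, and the Azgp1 window 50.3% with 3 CpGs, against medians of 52.7% and 7 over all windows. GGGCGG occurred 6 times in the Cftr window, partly in a run of overlapping matches, and once in the Ica1 window, and 35.7% of all windows hold it. CCAAT was found in the Cftr and Azgp1 windows and is in 37.4% of all, and TATAAA was found in the Ica1 window and is in 13.6% of all. Other motifs searched on both strands were in none of the 3 printed windows. They were TGACGTCA, found in 1.79% of all windows, AGATAA in 11.2%, TGTGGT in 16.8%, TTGCNNAA in 10.8%, and GAGGAAGT in 3.20%. No motif of the 8 searched was in all 3 printed windows. These are matches of letters and say nothing of what binds there. A window at an internal start of Ica1, not printed, held a match to CCAAT and a match to TATAAA. With that window included, CCAAT was found at a start of each of the 3 genes.

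Depth was 60113466, 65183188 and 62308393 counts in the adult libraries. It was 64712241 and 66132051 counts in neonatal replicates 7 and 8, but only 3932833 in neonatal replicate 4, which stands apart. A count of 0 was given an upper limit of 3 counts, which covers counting error only. This floor is 0.897 CPM (counts scaled to library size, after TMM scaling) in neonatal replicate 4, 0.0425 CPM in replicate 7 and 0.0444 CPM in replicate 8. Adult and neonatal libraries also differed in sex-linked RNA: Ddx3y, a Y-linked gene, was at 154, 110 and 98.7 CPM in the adult libraries, with a single count in all neonatal ones. Xist, the RNA of the inactive X chromosome, was at 0.737, 0.610 and 0.919 CPM in the adult libraries, against 186, 51.7 and 58.0 CPM in the neonatal ones. Age group and the sex of the cells therefore cannot be told apart for any of the 4 genes.

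Cftr was the most abundant of the 4. It had 8638, 2622 and 4033 counts in adult replicates 1, 2 and 4, which is 145, 39.0 and 62.8 CPM, and 0 counts in each neonatal library. Every adult library was thus far above the floor of every neonatal library, that of the shallow replicate 4 included. The mean was 82.2 ± 55.4 CPM (SD, n = 3) in adult LICs, at least 3875-fold higher than in neonatal LICs, against a floor of 3 counts over that group. With 1 library left out this bound ran from 1941 to 4893, lowest without neonatal replicate 7, and it was 2401 without adult replicate 1. At the lowest adult level, neonatal replicates 4, 7 and 8 would have held 131, 2755 and 2635 counts. Per kilobase of exon, Cftr in adult replicate 1 stood above 75.3% of the genes with a count in that library, above 50.5% in replicate 2 and above 59.8% in replicate 4. The channel gene was therefore a mid-level transcript in these adult libraries.

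Ica1 followed the same order among the adult libraries. It had 1053, 144 and 531 counts in adult replicates 1, 2 and 4, or 17.6, 2.14 and 8.27 CPM, against 0 counts in each neonatal library. The spread of 8.23 times between the highest and the lowest adult library was wider than the 3.71 times of Cftr. The adult mean was 9.35 ± 7.80 CPM (SD, n = 3), at least 441-fold higher than the neonatal floor, a bound that ran from 221 to 611 with 1 library left out, lowest without neonatal replicate 7 and 246 without adult replicate 1. At the lowest adult level, neonatal replicate 4 would have held 7.17 counts and replicates 7 and 8 would have held 151 and 145.

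Clec3a was highest in a different library. Its counts were 242, 76 and 500 in adult replicates 1, 2 and 4, or 4.05, 1.13 and 7.79 CPM, and 0 in each neonatal library. Adult replicate 4 alone carried 60.03% of the summed adult CPM of the gene, against 29.5% for Ica1 and 25.5% for Cftr. The other members had a like share in their own highest library. It was 58.7% for Cftr and 62.9% for Ica1 in adult replicate 1, and 65.9% for Azgp1 in adult replicate 2. The adult mean was 4.32 ± 3.34 CPM (SD, n = 3), at least 204-fold higher than the neonatal floor, a bound that ran from 102 to 279 with 1 library left out, lowest without neonatal replicate 7 and 122 without adult replicate 4. The lowest adult level equals 3.78 counts in neonatal replicate 4, barely above the limit that a count of 0 allows, so the contrast rests on neonatal replicates 7 and 8, where that level equals 79.9 and 76.4 counts.

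Azgp1 varied most among the adult libraries. It had 225, 549 and 30 counts in adult replicates 1, 2 and 4, or 3.77, 8.17 and 0.467 CPM, and 0 in each neonatal library. Adult replicate 2 was the highest and replicate 4 the lowest, 17.5 times apart. The adult mean was 4.14 ± 3.86 CPM (SD, n = 3), at least 195-fold higher than the neonatal floor, a bound that ran from 97.7 to 282 with 1 library left out, lowest without neonatal replicate 7 and 99.9 without adult replicate 2. The level of adult replicate 4 equals 1.56 counts in neonatal replicate 4, so a difference between these libraries was not detectable at this depth. In neonatal replicates 7 and 8 the same level equals 33.0 and 31.5 counts.

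**Figure D1:**
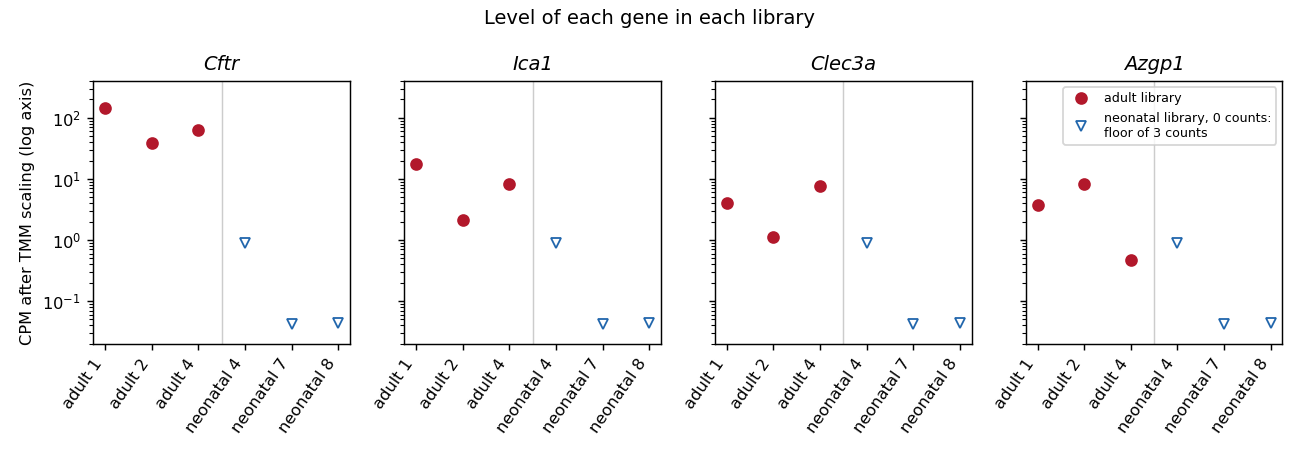
CPM after TMM scaling on a log axis for each gene in each of the 6 libraries, with filled circles for adult libraries and open triangles at the floor of 3 counts for neonatal libraries with 0 counts. All adult points lie above the floors of neonatal replicates 7 and 8 (0.0425 and 0.0444 CPM), and the Azgp1 point of adult replicate 4 (0.467 CPM) lies below the floor of neonatal replicate 4 (0.897 CPM).

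The adult libraries did not rank the 4 genes alike. Per kilobase of exon the adult means were 13.0 ± 8.79 CPM per kb for Cftr, 4.51 ± 3.76 for Ica1, 3.15 ± 2.94 for Azgp1 and 1.48 ± 1.14 for Clec3a (SD, n = 3 each), and no gene differed from the next in this order by more than their spreads. Cftr was highest in adult replicates 1 and 4. In adult replicate 2 Azgp1, at 6.22 CPM per kb, equalled Cftr at 6.19. The length-scaled ratio of Cftr to Ica1 was 2.70, 5.99 and 2.50 in adult replicates 1, 2 and 4, whereas that of Cftr to Azgp1 was 8.002, 0.995 and 28.0. Cftr and Ica1 thus kept a steadier ratio than Cftr and Azgp1 over these 3 libraries, which are too few for a test. Summed marker levels of maturing neutrophils, 13 genes, were 24362, 29046 and 4402 CPM in adult replicates 1, 2 and 4, against 3593, 1564 and 298 CPM in neonatal replicates 4, 7 and 8. Azgp1 had the same order of adult libraries as this sum and the other 3 genes did not. That order was not particular to neutrophil genes. The summed macrophage markers had it too (653, 832 and 234 CPM in adult replicates 1, 2 and 4). So did those of T and NK cells (81.2, 114 and 48.0 CPM) and of erythroid cells and megakaryocytes (6.83, 8.27 and 4.17 CPM). The part of any of these cells in the result was not tested, and in bulk RNA fewer cells of a type and less RNA per cell cannot be told apart.

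**Figure D2:**
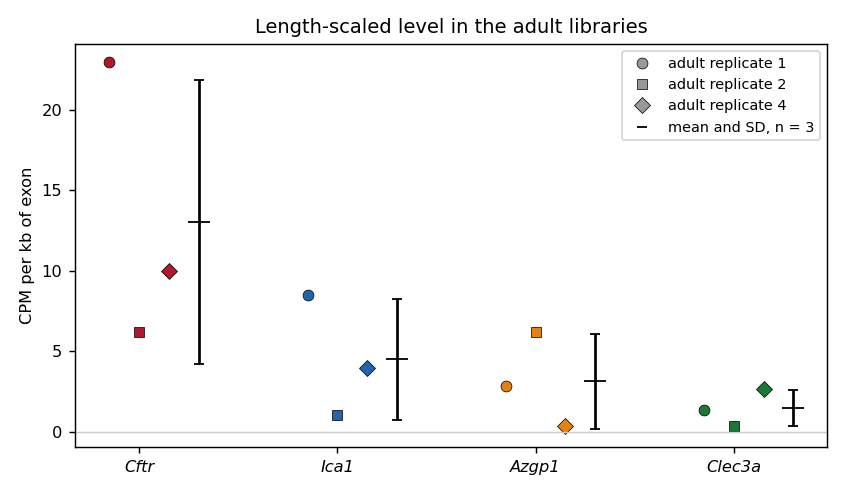
CPM per kilobase of exon in the 3 adult libraries, one symbol shape per replicate, with the mean and SD (n = 3) beside each gene. Cftr is highest in adult replicates 1 and 4, and in adult replicate 2 Azgp1 (6.22) and Cftr (6.19) stand level.

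The rule behind the 4 genes admits many others. Of 22277 autosomal genes, 171 (0.768%) had at least 1 count in each adult library and 0 in all neonatal libraries. The mirror pattern, at least 1 count in each neonatal library and 0 in all adult libraries, held for 25 (0.112%), but it asks for a count in the shallow neonatal replicate 4 and so is the harder one to meet. Most of the 171 were near the detection limit, with a median mean of 0.199 CPM in adult LICs. Only 43 had at least 10 counts in each adult library and 12 had at least 30, and all 4 genes are among the 12, Azgp1 at exactly 30 counts in adult replicate 4. Ranked by mean adult CPM, Cftr was the first of the 171, Ica1 the third, Clec3a the fifth and Azgp1 the sixth. Ranked by the lowest adult library, Cftr and Ica1 were again at the top, Clec3a had rank 4 and Azgp1 rank 12. All 4 passed the filter on low counts, as did 40 of the 171, and they passed through the adult libraries alone.

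Among the other 6 of the 10 highest genes in this class, Tex15, Klra17 and C2cd4a were carried mostly by adult replicate 4. Tex15, a gene of meiosis in germ cells, was at 1.31, 1.67 and 38.4 CPM in adult replicates 1, 2 and 4. Gtsf1l was at 15.5, 4.85 and 0.623 CPM, and AI607873 at 4.25, 2.83 and 0.888 CPM. Klra17 had 2 counts in adult replicate 1 against 645 in replicate 4. C2cd4a had 5 counts in adult replicate 1 against 606 in replicate 4, and Pcdhgb2, a protocadherin gene, had 0.0149 CPM in adult replicate 2 against 4.14 in replicate 1. Within the 13 genes of the class at a mean of 2 CPM or more, the ratio of the highest to the lowest adult library ran from 3.71, that of Cftr, to 300. Just outside the rule stood genes with 1 to 3 neonatal counts in total. Car2, a carbonic anhydrase gene, had 709, 1 and 285 counts in the adult libraries and 1 neonatal count, and Ano4, an anoctamin gene, had 160, 117 and 220 against 3. Nrn1, Rpl39l, Jam3, Il28ra, Klb, Rassf8, Ldhc and Ric3 completed the 10 highest of these, at 2.42 to 1.46 CPM on average in adult LICs.

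**Figure D3:**
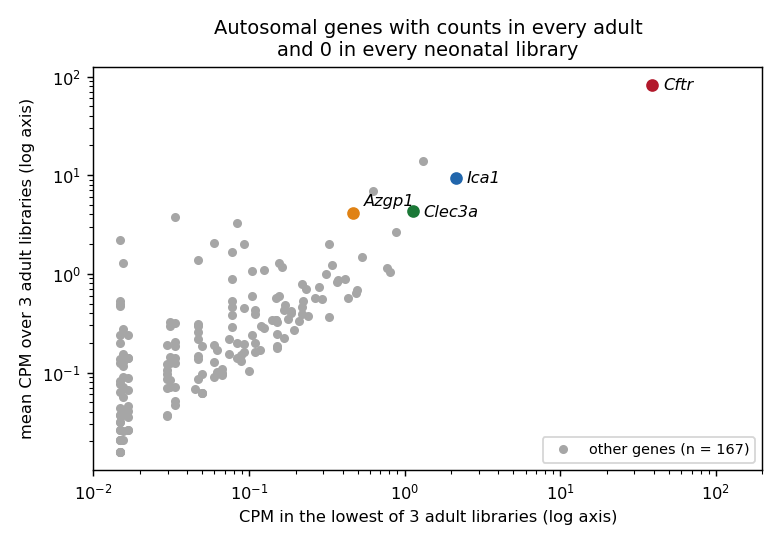
Mean CPM over the 3 adult libraries against the CPM of the lowest adult library, both on log axes, for the 171 autosomal genes with counts in every adult and in no neonatal library. Cftr (82.2 CPM on average and 39.0 CPM in its lowest library) lies apart at the upper right, and Ica1, Clec3a and Azgp1 lie at the upper end of the other genes.

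The genes whose levels were most like each member were sought by the smallest distance in log2 CPM over the 6 libraries, among 15398 other genes with at least 10 counts. As the libraries include the 2 groups that chose the members, this is a description. For Cftr they were all Y-linked: Ddx3y, Eif2s3y and Kdm5d, at log2 distances of 1.70, 2.03 and 2.46. In the adult libraries Eif2s3y was at 154, 133 and 125 CPM and Kdm5d at 31.2, 29.3 and 31.3 CPM, with 0 counts in each neonatal library, so these genes varied less among the adult libraries than Cftr did. For Ica1 the nearest was Clec3a (2.30), then Ppp1r9a (3.01), a neuronal scaffold gene also on chromosome 6, and Ces2g (3.60). For Clec3a they were Ppp1r9a (1.39), Ica1 (2.30) and Nrn1 (2.35). Ppp1r9a was at 2.91, 1.22 and 5.53 CPM in adult replicates 1, 2 and 4, with 2 counts in each of neonatal replicates 7 and 8. For Azgp1 they included AI607873 (1.76) and Gtsf1l (2.20), both with 0 neonatal counts.

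The genes beside the 4 members, which the rule did not use, mostly did not share their pattern. Within 500 kb of a member lay 61 other genes, of which 55 had counts in some library. The groups did not overlap for 5 of the 55 (9.09%), against 17.7% of all 16927 genes with counts. The nearest genes to Cftr were almost silent. Cttnbp2, 43.7 kb away, had 24 counts, all in adult replicate 4, and Asz1, a germ cell gene 61.6 kb away on the other side, had 64 counts, all in adult replicate 1. Wnt2, 140 kb away, had 0 in all 6 libraries. St7, 228 kb away, was at 139, 86.2 and 112 CPM in adult replicates 1, 2 and 4, against 102, 69.5 and 57.8 CPM in neonatal replicates 4, 7 and 8, so the groups overlapped (log2 fold change 0.56 ± 0.34, adult minus neonatal, SE, edgeR adjusted p = 0.579). Naa38, 526 kb away, overlapped too, at 108 to 124 CPM in adult and 88.1 to 136 CPM in neonatal libraries. None of these neighbours thus had the level of Cftr in adult LICs together with its absence in neonatal LICs.

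Ica1 and Clec3a also stood alone in their neighbourhoods. Glcci1, 33.0 kb from Ica1, was at 7.59, 11.7 and 20.7 CPM in adult replicates 1, 2 and 4, against 11.1, 9.19 and 3.70 CPM in neonatal replicates 4, 7 and 8 (edgeR adjusted p = 0.681). A430035B10Rik, 121 kb away, was at 0.687 to 3.15 CPM in adult and 0.874 to 1.49 CPM in neonatal libraries. On the other side Nxph1 had 0 counts in every library, and the first genes with counts, Ndufa4 and Phf14, lay 3122 and 3147 kb away and overlapped between the groups. Wwox, a large gene 11.5 kb from Clec3a, was at 20.1, 9.21 and 21.8 CPM in adult replicates 1, 2 and 4, against 11.4, 19.9 and 25.3 CPM in neonatal replicates 4, 7 and 8 (edgeR adjusted p = 0.936). Nudt7, 266 kb from Clec3a, was lower in each adult library than in any neonatal one, at 15.7 to 24.9 CPM against 25.1 to 42.1 CPM, and did not pass the test (edgeR adjusted p = 0.530). 4933408N05Rik and Maf were below 1 CPM in all 6 libraries.

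Around Azgp1, a gene-dense region with 46 genes within 500 kb, the groups did not overlap for 4 of 43 genes with counts. That is 9.30%, against 17.7% of all genes with counts. The 4 were Zfp157 and a cluster of immune receptor genes, all higher in the adult libraries. Pilrb1, an activating receptor gene of myeloid cells 123 kb from Azgp1, was at 48.7, 58.3 and 37.7 CPM in adult replicates 1, 2 and 4, against 8.97, 8.23 and 8.41 CPM in neonatal replicates 4, 7 and 8. Its log2 fold change was 2.50 ± 0.33 on 6 libraries (SE, edgeR adjusted p = 0.105) and 2.52 ± 0.28 without neonatal replicate 4 (adjusted p = 0.0320), with a range of 6.46e-11 to 0.389 across 13 alternatives (edgeR, limma and DESeq2 adjusted p). Pilrb2 was at 43.6 to 72.4 CPM in adult and 9.80 to 16.7 CPM in neonatal libraries, and Pilra, the inhibitory partner, at 76.9 to 133 CPM and 30.2 to 32.1 CPM. Both passed without neonatal replicate 4 (log2 fold changes 2.19 ± 0.33 and 1.66 ± 0.28, SE, edgeR adjusted p = 0.0360 and 0.0389) and not on 6 libraries (0.140 for each, with ranges over 13 alternatives of 4.07e-05 to 0.389 and 9.87e-05 to 0.389). These 3 genes resemble each other in sequence, so reads could be split among them. The nearest gene to Azgp1 with counts overlapped between the groups. Gjc3, a connexin gene 18.6 kb away, was at 2.80, 3.41 and 1.84 CPM in adult replicates 1, 2 and 4, against 2.09, 2.17 and 1.42 CPM in neonatal replicates 4, 7 and 8 (edgeR adjusted p = 0.806). Cyp3a13, Smok3a and Smok3b, the next genes with counts, were at 0.119 CPM or below in every adult library and had 0 neonatal counts. They were too near the detection limit to be tested or compared.

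**Figure D4:**
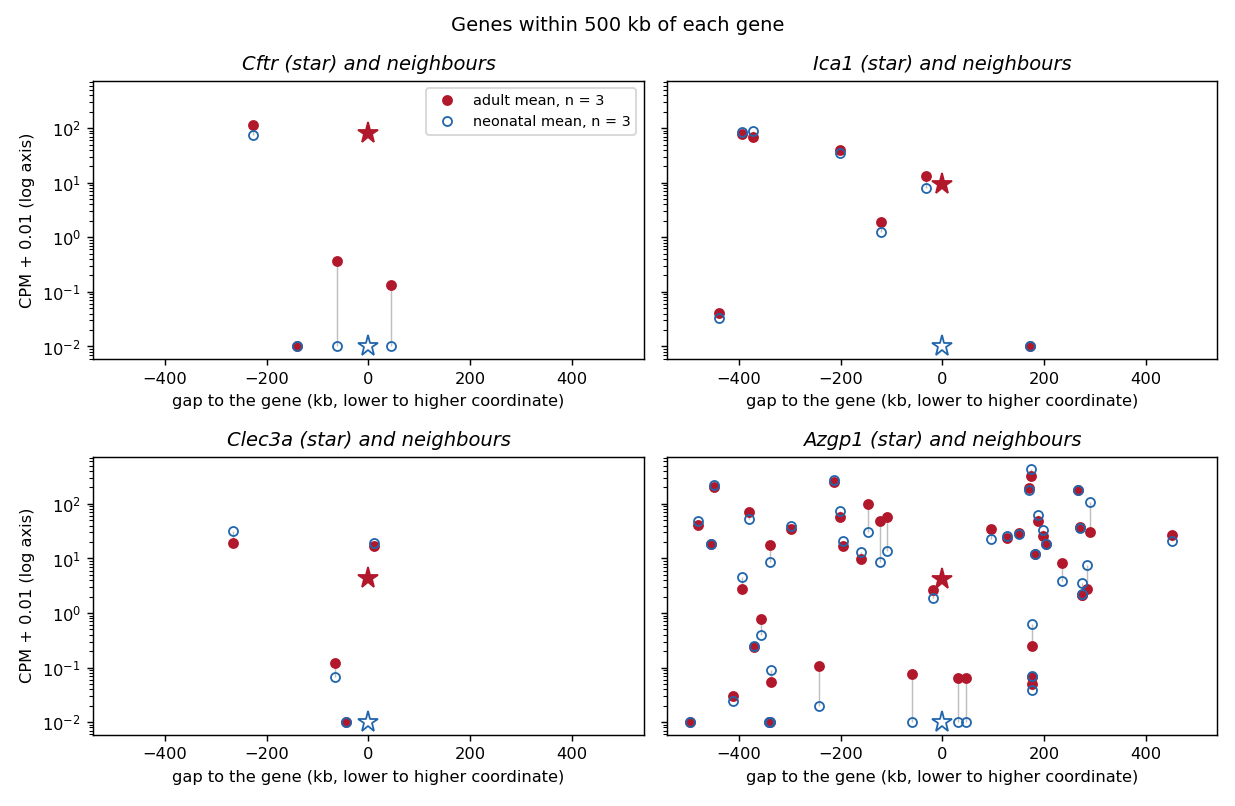
Mean CPM plus 0.01 (log axis) in adult (filled, n = 3) and neonatal (open, n = 3) libraries for genes within 500 kb of each member, against the gap to the member in kb, with stars for the member itself. Most neighbours have nearly coincident means, as Wwox does beside Clec3a, while Pilra, Pilrb1 and Pilrb2, 110 to 145 kb to the left of Azgp1, are higher in adult libraries.

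Genes that work with the 4 proteins were read from lists, with the members left out. On 6 libraries edgeR called 7 of 13272 genes (0.0527%), and 0 of the 210 tested genes of these lists and neighbourhoods. Of the 7, 5 were sex-linked genes, Xist and 4 Y-linked ones, as were 5 of the 7 called by limma voom. With the 4 members left out, edgeR called 4 genes higher and 2 lower in adult LICs. A list with 0 calls by edgeR is therefore not shown to be unchanged. An unadjusted edgeR p under 0.05 was reached by 42 of the 210 (20.0%), against 11.9% of all genes. DESeq2 called 28 of the 210 (13.3%, with no adjusted p for 3), 21 higher and 7 lower in adult LICs, against 5.72% of all genes, and limma voom called 1, against 0.0527%. The shares by unadjusted p and by DESeq2 were thus above those of all genes. Of the 28, 5 were genes of maturing neutrophils, all higher in adult LICs, and 4 of macrophages, 3 higher and 1 lower. The rest were spread over other lists. Without neonatal replicate 4, edgeR called 828 of 13856 genes (5.98%) and 15 of 223 listed ones, a share near that background. Of the 15, 7 were higher and 8 lower in adult LICs, as were 2.25% and 3.72% of all genes tested. Both the 28 and the 15 count Fcgr1, a macrophage gene with counts in the adult libraries only. It passed the filter through those libraries alone, so its calls are no support.

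Several genes for proteins that carry and regulate CFTR had reads in both groups. Of 35 listed partners, which include its kinase, its scaffolds and other ion carriers, 29 had counts and 6 had 0 in all libraries. Of these, 25 were tested on 6 libraries, with a median log2 fold change of 0.04, against -0.05 over all genes. EdgeR called none of the 25 and DESeq2 called 2 (8%, against 5.72% of all genes), Scnn1a and Kcnn4. Slc9a3r1, whose PDZ scaffold protein holds CFTR at the membrane, averaged 77.2 ± 7.28 CPM over the adult libraries and 113 ± 50.1 CPM over the neonatal ones (SD, n = 3 for both). Ezr, which ties that scaffold to actin, averaged 161 ± 42.0 and 311 ± 278 CPM, and the groups overlapped for both. Prkaca, the catalytic subunit of protein kinase A, was at 32.1 to 41.3 CPM in adult and 13.7 to 57.3 CPM in neonatal libraries. Gopc, a Golgi protein that steers CFTR to degradation, was at 13.2 to 32.1 CPM and 10.8 to 37.8 CPM, and Slc26a6, an anion exchanger that CFTR activates, at 5.91 to 8.57 CPM and 6.28 to 10.7 CPM. Without neonatal replicate 4, Kcnn4, a calcium-activated potassium channel gene, was lower in adult LICs, at 25.3, 15.4 and 6.99 CPM in adult replicates 1, 2 and 4, against 99.2 and 198 CPM in neonatal replicates 7 and 8 (log2 fold change -3.24 ± 0.56, SE, edgeR adjusted p = 0.0408, range over 13 alternatives 0.00989 to 0.536). In neonatal replicate 4 it was at 20.9 CPM, within the adult range. Scnn1a, a subunit gene of the epithelial sodium channel named with its values known, had 9372, 13547 and 10717 counts in adult replicates 1, 2 and 4, against 30, 2422 and 170 counts in neonatal replicates 4, 7 and 8 (log2 fold change 3.499, edgeR adjusted p = 0.170). Ano1, a calcium-activated chloride channel gene, had 9, 28 and 11 counts in the adult libraries and 0 in the neonatal ones. It was the only 1 of the 35 with that pattern, which 0.768% of all autosomal genes had.

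Among other ABC transporter genes, the family to which Cftr belongs by structure, none of 50 had counts in every adult and in no neonatal library. As 0.768% of all autosomal genes had that pattern, 0 of 50 is near the general share. On 6 libraries edgeR called 0 of 38 tested (median log2 fold change -0.28) and DESeq2 called 4, 2 higher and 2 lower in adult LICs. Those 4 were 10.5% of the 38, against 5.72% of all genes by DESeq2. Without neonatal replicate 4, 1 of 39 was higher and 4 were lower in adult LICs, against 2.25% and 3.72% of all genes tested. Abcc1, an exporter of drugs and glutathione conjugates, was at 30.2, 31.7 and 24.5 CPM in adult replicates 1, 2 and 4, against 58.9 and 81.0 CPM in neonatal replicates 7 and 8 (log2 fold change -1.29 ± 0.23, SE, edgeR adjusted p = 0.0415). Abca2 and Abcb8 were lower in adult LICs by the same test (log2 fold changes -1.58 and -1.11, adjusted p = 0.0360 and 0.0389), as was Abcg1, named with its values known (-2.18, adjusted p = 0.0416). Abca13, likewise named with its values known, was higher (2.84, adjusted p = 0.0431). In neonatal replicate 4 Abcc1 was at 7.47 CPM, Abca2 at 8.07 CPM and Abcb8 at 31.98 CPM, below every adult library. Over 13 alternatives the adjusted p ran from 0.0415 to 0.955 for Abcc1, from 0.0360 to 0.932 for Abca2 and from 0.0389 to 0.921 for Abcb8.

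None of the genes listed as relatives of the other 3 members had counts in every adult and in no neonatal library. With 0.768% of all autosomal genes in that class, lists this short would seldom hold one. Of 21 relatives and vesicle genes listed for Ica1, 7 were tested, and edgeR and DESeq2 called none on 6 libraries, with 0 at an unadjusted p under 0.05. Ica1l, the paralogue of Ica1, was at 1.78, 0 and 1.20 CPM in adult replicates 1, 2 and 4, against 3.89, 0.340 and 0.267 CPM in neonatal replicates 4, 7 and 8. Pick1, Arfip1 and Arfip2, which encode proteins with a like curving domain, and Rab2a, whose protein binds ICA1, overlapped between the groups as well. Rab2a was at 392 to 432 CPM in adult and 272 to 611 CPM in neonatal libraries. Clec3b, the tetranectin gene and closest relative of Clec3a, had 0 counts in all 6 libraries. Of 30 other genes named Clec, 20 were tested, and on 6 libraries edgeR called none and DESeq2 called 4, all higher in adult LICs. Those 4 were 20% of the tested genes, against 5.72% of all genes by DESeq2. Without neonatal replicate 4, Clec5a, a myeloid activating receptor gene, was higher in adult LICs, at 19.2, 15.5 and 18.5 CPM in adult replicates 1, 2 and 4 against 2.05 and 0.889 CPM in neonatal replicates 7 and 8 (log2 fold change 3.58 ± 0.50, SE, edgeR adjusted p = 0.0360, range over 13 alternatives 0.0360 to 0.887). Neonatal replicate 4 was at 17.9 CPM, like the adult libraries.

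Of 15 MHC class I-like and related genes listed for Azgp1, 10 were tested. On 6 libraries edgeR called none of the 10 and DESeq2 called 2, Hfe and Ulbp1, both higher in adult LICs. Those 2 were 20% of the tested genes, against 5.72% of all genes by DESeq2. Hfe, which regulates iron uptake, was at 40.1, 19.8 and 73.7 CPM in adult replicates 1, 2 and 4, against 15.5, 11.1 and 5.12 CPM in neonatal replicates 4, 7 and 8, without overlap (log2 fold change 2.10 ± 0.60, SE, edgeR adjusted p = 0.223, range over 13 alternatives 0.0236 to 0.502). Fcgrt, the neonatal Fc receptor gene, was at 1.07 to 30.4 CPM in adult and 11.4 to 33.6 CPM in neonatal libraries. Mr1 was at 0.636 to 2.90 CPM and 2.12 to 3.29 CPM, and Cd1d1 at 38.9 to 47.8 CPM and 46.0 to 66.7 CPM. B2m, the light chain that class I molecules need and that zinc-alpha-2-glycoprotein does without, was at 877 to 1189 CPM in adult and 704 to 3005 CPM in neonatal libraries.

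Defining markers of liver, pancreas and cartilage, tissues known for Azgp1, Ica1 or Clec3a, were read in the same libraries. Alb, Ins2 and Acan, defining genes of hepatocytes, pancreatic beta cells and cartilage, had 0 counts in all 6 libraries. Of 16 pancreas genes 13 had 0 counts in all libraries, and the summed level of the list was at most 0.201 CPM in an adult and 0.299 CPM in a neonatal library. The 10 hepatocyte genes summed to 0.312 to 0.737 CPM in adult and 0.453 to 1.20 CPM in neonatal libraries, and the 13 cartilage genes to 1.35 to 4.27 CPM and 0.598 to 2.27 CPM. That cartilage sum is of the order of Clec3a itself, at 1.13 to 7.79 CPM in the adult libraries, and 5 of the 13 genes had 0 counts throughout. Lect1, a cartilage gene named with its values known, had 133, 14 and 79 counts in adult replicates 1, 2 and 4, against 0, 0 and 2 counts in neonatal replicates 4, 7 and 8 (edgeR adjusted p = 0.172, and called by DESeq2). The part of cartilage genes in the Clec3a result was not tested. Epcam, the epithelial surface marker, was at 0, 0.759 and 0 CPM in adult replicates 1, 2 and 4, against 0, 1.05 and 27.2 CPM in neonatal replicates 4, 7 and 8. Together the 24 epithelial genes stood at 46.6 to 70.8 CPM in adult and 50.5 to 201 CPM in neonatal libraries, and these sums overlapped between the groups. Ehf, on this list, had 1, 2 and 1 counts in adult replicates 1, 2 and 4 and 0 in the neonatal libraries. The part of epithelial genes in the Cftr result was not tested. Blood cell genes were present throughout. Ptprc, the pan-leukocyte marker CD45, was at 263 to 322 CPM in adult and 144 to 271 CPM in neonatal libraries. The 13 stem and progenitor genes summed to 1864 to 2508 CPM in adult and 2197 to 4760 CPM in neonatal libraries.

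The stem cell genes Kit and Cd34 varied within these groups, and Cd34 was lower in each adult library than in any neonatal one. Its log2 fold change was -3.75 ± 0.99 on 6 libraries (SE, edgeR adjusted p = 0.191). Kit was at 50.03 to 85.8 CPM in adult and 23.6 to 264 CPM in neonatal libraries, and Cd34 at 8.16, 105 and 12.6 CPM in adult replicates 1, 2 and 4, against 396 to 662 CPM in neonatal libraries. Adult replicate 2, the highest of the adult libraries in Cd34, was the lowest of them in Cftr, Ica1 and Clec3a and the highest in Azgp1. It was also the highest in Camp, a granule gene of maturing neutrophils, at 5386 CPM against 1413 and 444 CPM in adult replicates 1 and 4. Camp stood at 6.58, 10.1 and 0.237 CPM in neonatal replicates 4, 7 and 8. Neutrophil genes, 13 of them tested, were all positive on 6 libraries (median log2 fold change 2.85). Over all genes without the members, 6162 of 13268 were positive. Without neonatal replicate 4, 11 of the 13 neutrophil genes were positive, against 7205 of 13852. On 6 libraries edgeR called none of the 13 and DESeq2 called 5 (38.5%, against 5.72% of all genes). All 5 were higher in adult LICs, Camp and S100a8 among them. By edgeR without neonatal replicate 4, S100a8 passed (8.53, adjusted p = 0.0437). Of 11 macrophage genes tested on 6 libraries 9 were positive, and 9 of 12 without neonatal replicate 4. On 6 libraries edgeR called none of the 11 and DESeq2 called 4 (36.4%), 3 higher and 1 lower in adult LICs. Fcgr1, a phagocyte receptor gene called by DESeq2 and by edgeR without neonatal replicate 4, had 58, 40 and 32 counts in the adult libraries. It had 0 counts in the neonatal ones and so is one of the 171. Like the members it passed the filter through the adult libraries alone, so its p-value is not given. Its call is counted among the 4 by DESeq2 but is no support, for the same reason. By edgeR without neonatal replicate 4, Cd68, a lysosomal gene, was lower (-1.60, adjusted p = 0.0360). Kit and Flt3, a receptor of early progenitors, were lower too (-1.75 and -6.48, adjusted p = 0.0361 and 0.0348). In neonatal replicate 4, however, Kit was below every adult library. No tested gene of the B cell, T and NK cell, erythroid and megakaryocyte, or stromal and endothelial lists passed edgeR's test in either fit, and DESeq2 called 1 of them, Itga2b, lower in adult LICs on 6 libraries.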

How the data were processed

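The deposited table held raw counts per gene that, per the file headers, the authors made with featureCounts 1.5.1 on primary alignments and a UCSC annotation of mm10, without a strand option. Per the submitters' processing notes, Trimmomatic, Bowtie, TopHat and DESeq2 were also used, with no version given. Per the labels' protocols, polyA RNA was read single-end at 75 bases. GENCODE and RefSeq annotations of the same assembly were read for overlaps and promoters.

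CPM used TMM effective library sizes. Adult minus neonatal was fitted on all genes with edgeR 4.0.16 in R 4.3.3 (filterByExpr with minimum count 10, TMM, robust quasi-likelihood F test, Benjamini-Hochberg threshold 0.05). SEs were derived as the log2 fold change over the square root of F. Alternatives were DESeq2 1.42.0, limma 3.58.1 voom, RLE scaling, library totals, 2 filters, no X and Y genes, and each library left out. A floor of 3 counts (95% confidence) stands for a count of 0. Over a group, it is 3 counts over the summed effective sizes.

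The members and lists were chosen with earlier results of these data known. Named were the members, the nearest 2 genes with counts on each side and called genes within 500 kb, up to 3 called genes per list and fit, the 3 most alike genes per member (log2 CPM, prior count 2), the 10 highest inside and just outside the rule, and 27 fixed genes. Of genes so named, Uty is not described and 1 gene like Azgp1 in level is not reported here. In simulated counts of adult minus neonatal on 6 libraries (13014 genes), edgeR found 0 of 49 genes changed by a log2 fold change of 1, 16 of 50 changed by 2, 23 of 47 changed by 3 and 47 of 49 changed by 5, and called 5 of 12819 that were left alone.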

Additional observations from a re-analysis of the deposited data

How the results depend on the processing

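The count of 7 genes called by edgeR on 6 libraries was 759 with DESeq2 and 0 with chromosomes X and Y left out (1527 at an unadjusted p under 0.05), and ran from 1 to 828 when a library was left out, the 828 without neonatal replicate 4. It was 7 with limma voom, 5 with RLE scaling and 6 to 7 under the other scaling and filters. The 0 listed genes called became 28 with DESeq2, 1 with limma voom, and 0 to 15 when a library was left out, the 15 again without neonatal replicate 4. The cause was not tested. The class of 171 genes with adult counts only became 43 at a minimum of 10 counts per adult library and 383 with up to 3 neonatal counts allowed, and 188 to 340 with a library left out, which asks less of the remaining libraries. Under RLE scaling and library totals the adult mean of Cftr was 81.3 to 82.9 CPM, and those of Ica1, Clec3a and Azgp1 were 9.25 to 9.42, 4.26 to 4.41 and 4.10 to 4.22 CPM. With a library left out, Cftr averaged 50.9 to 104 CPM, Ica1 5.21 to 13.0 CPM, Clec3a 2.59 to 5.92 CPM and Azgp1 2.12 to 5.97 CPM. Without adult replicate 1 the Cftr and Ica1 means fell over 1.5 times, without adult replicate 4 that of Clec3a, and without adult replicate 2 that of Azgp1. With a library left out, the fold bounds ran from 1941 to 4893 for Cftr, 221 to 611 for Ica1, 102 to 279 for Clec3a and 97.7 to 282 for Azgp1, each lowest without neonatal replicate 7. No paired analysis was possible because the groups share a single replicate number, 4. Depth in neonatal replicate 4 limits what a count of 0 can show for Clec3a and Azgp1.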
